A study of Mus musculus with 48 samples.

Results

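The comparison was male against female liver in C57BL/6J mice that were fed a high-fat diet and given vehicle. It used 12 of the 48 libraries of the study, 6 male and 6 female. The study crossed sex with diet (low fat or high fat) and with treatment (vehicle, or a mixture of the dioxin TCDD, the dibenzofuran PeCDF and the dioxin-like biphenyl PCB126), in 8 groups of 6 liver libraries, with mice kept for 12 weeks. Poly(A) RNA was sequenced, and the deposited table gave each gene in TPM, a share of all transcripts that accounts for gene length. Male and female high-fat vehicle mice shared strain, diet, vehicle and duration, and none of them received the mixture. Their age is not given in the labels. No label ties a library to its own animal, so the p-values rest on the spread among libraries, which may be technical in part. Of 49315 genes in the table, 44787 were autosomal, and 13142 of these, reaching 1 TPM or more in 6 or more of the 12 libraries, were tested. Levels are TPM, given as lowest, median and highest of the 6 libraries of a sex. Differences are male minus female means of log2(TPM + 1), with their standard error (SE) and the p from limma adjusted by the Benjamini-Hochberg method over all 13142 genes. A gene was called at an adjusted p under 0.05.

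As background, the liver of adult rodents is among the organs in which the sexes differ most in gene expression. Males release growth hormone in pulses and females more steadily. The pulses switch the transcription factor STAT5b on and off, whereas a steady supply maintains CUX2, a repressor of male genes and activator of some female ones, and lowers BCL6, a repressor of female genes. Obesity and fatty liver are known to blunt this system in mice, and fatty liver is often more severe in males than in females of this strain.

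The sexes separated by their sex-linked genes as labelled. Xist, the RNA that silences an X chromosome, lay at 52.3 to 79.8 TPM in the female libraries and 0.102 to 0.567 TPM in the male ones, and the Y-linked Ddx3y at 27.5 to 34.6 TPM in males. Between 13422 and 14053 genes per library reached 1 TPM, and sequencing depth cannot be read from TPM. Male replicate 1 stood apart from the other males in the sex-biased genes described below, and female replicate 1 held traces of fat, muscle and B cells. In female replicate 1, Adipoq was at 9.48 TPM against at most 0.287 TPM in the other 11 libraries, and 14 of 15 skeletal muscle genes were at their highest. Muscle transcripts were not confined to that library: the median of their sum was 69.58 TPM in females and 35.62 TPM in males. Summed over the 25 hepatocyte core genes, levels were 155400 to 166500 TPM in males and 166100 to 183900 TPM in females (exact permutation test, two-sided, p = 0.00649, adjusted over 13 marker lists 0.0422). The most abundant genes weigh most in this sum, such as Alb, with medians of 51900 TPM in males and 64860 TPM in females. Of the 25 genes, 6 were called higher in females by the limma test used below, 1 in males and 18 in neither. Their median log2 difference was -0.07.

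On the high-fat diet, 1151 of the 13142 genes (8.76%) were higher in males and 488 (3.71%) were higher in females. Together these were 12.5% of the genes tested. Counts of list members below are to be read beside the 8.76% and 3.71%. The large differences were spread more evenly: 112 genes were called with at least a 2-fold difference towards males and 98 towards females, and 36 and 39 genes with at least a 4-fold difference. The groups did not overlap at all, every male library above every female one, for 593 genes (4.51%), and for 281 (2.14%) every female library was above every male one. The median difference over all genes was 0.05 on the log2 scale. With libraries scaled by a trimmed mean it was 0.02, the calls became 953 and 547, and the male share of calls moved from 70.2% to 63.5%. Without male replicate 1 the calls were 857 towards males and 400 towards females, and without female replicate 1 they were 1544 and 509.

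The most male-biased gene was Cidea and the most female-biased were sulfotransferases of the Sult2a group. Cidea, a protein of lipid droplets that promotes their fusion, lies on chromosome 18 from 67343604 to 67367785 (plus strand, GRCm38). It was at 84.2, 103 and 145 TPM in males (lowest, median, highest) and 0.406, 0.686 and 1.41 TPM in females. All males were thus above all females by a wide margin, a log2 difference of 5.95 (SE 0.15, adjusted p = 7.9e-12). Sult2a1, which adds sulfate to bile acids and steroids and lies on chromosome 7 from 13796246 to 13837409 (minus strand, GRCm38), stood at 751, 982 and 1135 TPM in females and 0.905, 1.7 and 2.31 TPM in males. Its log2 difference was -8.55 (SE 0.14, adjusted p = 6.1e-14). The other genes of the 12 largest in each direction were mainly major urinary proteins, cytochromes P450 and further sulfotransferases.

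**Figure D1:**
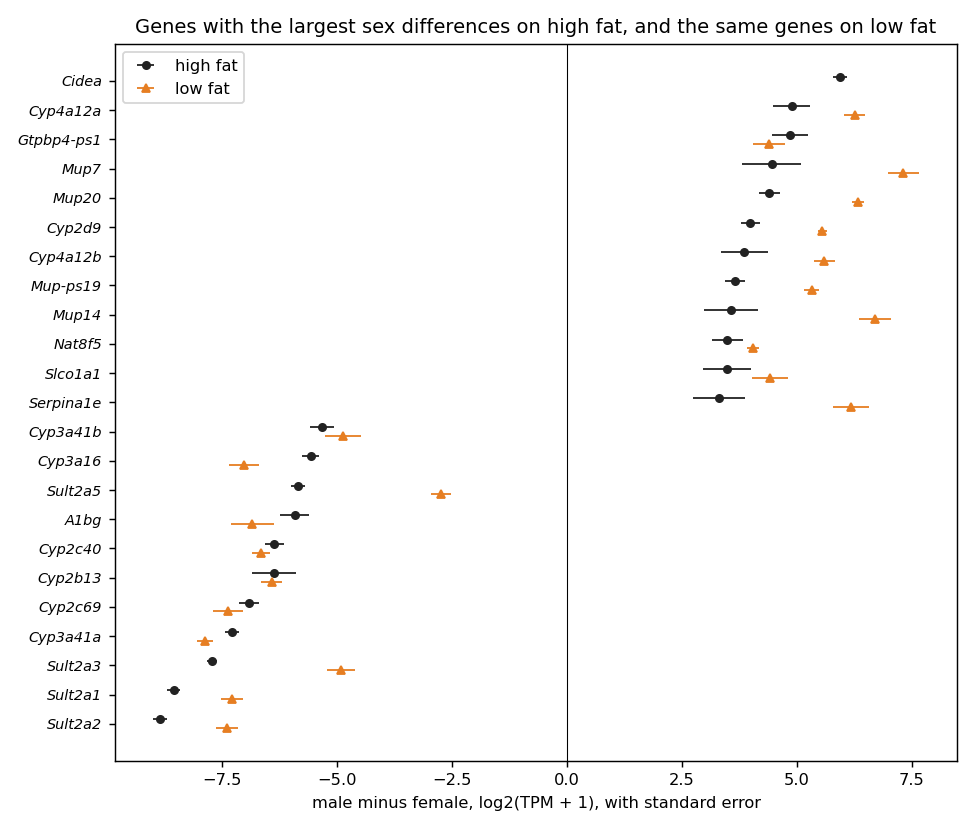
Male minus female difference in log2(TPM + 1) for the 12 genes with the largest difference in each direction on the high-fat diet (filled, with standard error) and the same genes on the low-fat diet, with 1 of those towards females not drawn. Cidea, at 5.95, has no low-fat point because it missed the low-fat filter, and the Sult2a genes lie farther from 0 on the high-fat diet than on the low-fat one.

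Among genes known from other mouse work as male-biased in liver, 36 of the 44 measured were higher in males and 1 was higher in females, with a median log2 difference of 1.57. This list and the female-biased one below were compiled with results of these data known, so their counts are no independent check. Cyp2d9, a steroid hydroxylase long used as a marker of male liver, lies on chromosome 15 from 82433437 to 82456845 (plus strand, GRCm38). It was at 754, 1021 and 2394 TPM in males and 60.2, 70.7 and 75.3 TPM in females, a log2 difference of 3.99 (SE 0.21, adjusted p = 3e-08). No library of either sex crossed into the range of the other. Cyp4a12a, which oxidises arachidonic acid to a vasoactive lipid, was at 31.5, 49.9 and 252 TPM in males and 0.831, 1.24 and 1.82 TPM in females (log2 difference 4.89, SE 0.40, adjusted p = 3.2e-06). Slco1a1, an uptake carrier for organic anions, reached 5.26, 38.2 and 131 TPM in males and 1.61, 1.86 and 3.27 TPM in females (log2 difference 3.48, SE 0.53, adjusted p = 0.0008). The males of these genes spread widely while the females stayed in a narrow band. Nat8, an acetyltransferase, was the opposite case with a narrow male range, 26.9, 32.6 and 39.3 TPM against 1.86, 3.19 and 6.62 TPM (log2 difference 2.91, SE 0.20, adjusted p = 5.2e-07).

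Major urinary proteins, pheromone carriers that liver secretes into blood for excretion in urine, were higher in males in 8 of 15 measured members and in females in none. Together the 21 Mup genes of the table took 0.732% to 2.76% of all TPM in males, with a median of 1.36%, and 0.363% to 0.443% in females. Mup20, also called darcin, a male pheromone in urine, was at 2048, 4012 and 7414 TPM in males and 147, 194 and 233 TPM in females (log2 difference 4.41, SE 0.24, adjusted p = 3.1e-08). Mup7 was at 51.7, 289 and 2310 TPM in males and 8.24, 11.3 and 20.1 TPM in females (log2 difference 4.45, SE 0.65, adjusted p = 0.00055). Male replicate 1 held the 2310 TPM, the next male being at 340.3 TPM. Without that library the log2 difference of Mup7 was 3.85 (adjusted p = 7.5e-05).

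The same library carried the highest level of other male genes. Serpina1e, the male-biased copy of the antitrypsin cluster, was at 44.3, 196 and 1287 TPM in males, male replicate 1 being the highest, and 17.3, 18.8 and 32.7 TPM in females. The log2 difference was 3.31 (SE 0.56, adjusted p = 0.0017) and 2.79 without replicate 1. Hsd3b5, a keto-steroid reductase of male liver, was at 1.14, 4.26 and 115 TPM in males and 0.391, 0.74 and 2.5 TPM in females. Again the 115 TPM came from male replicate 1, and the groups overlapped. Its log2 difference of 2.01 (SE 0.77) missed the threshold (adjusted p = 0.11, and 0.065 without male replicate 1). Mup, Serpina1, Sult2a, Cyp2c, Cyp3a and Cyp4a12 genes have near-identical copies, so the value of each member rests on how reads were divided among them, a step the sources used here do not describe.

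**Figure D2:**
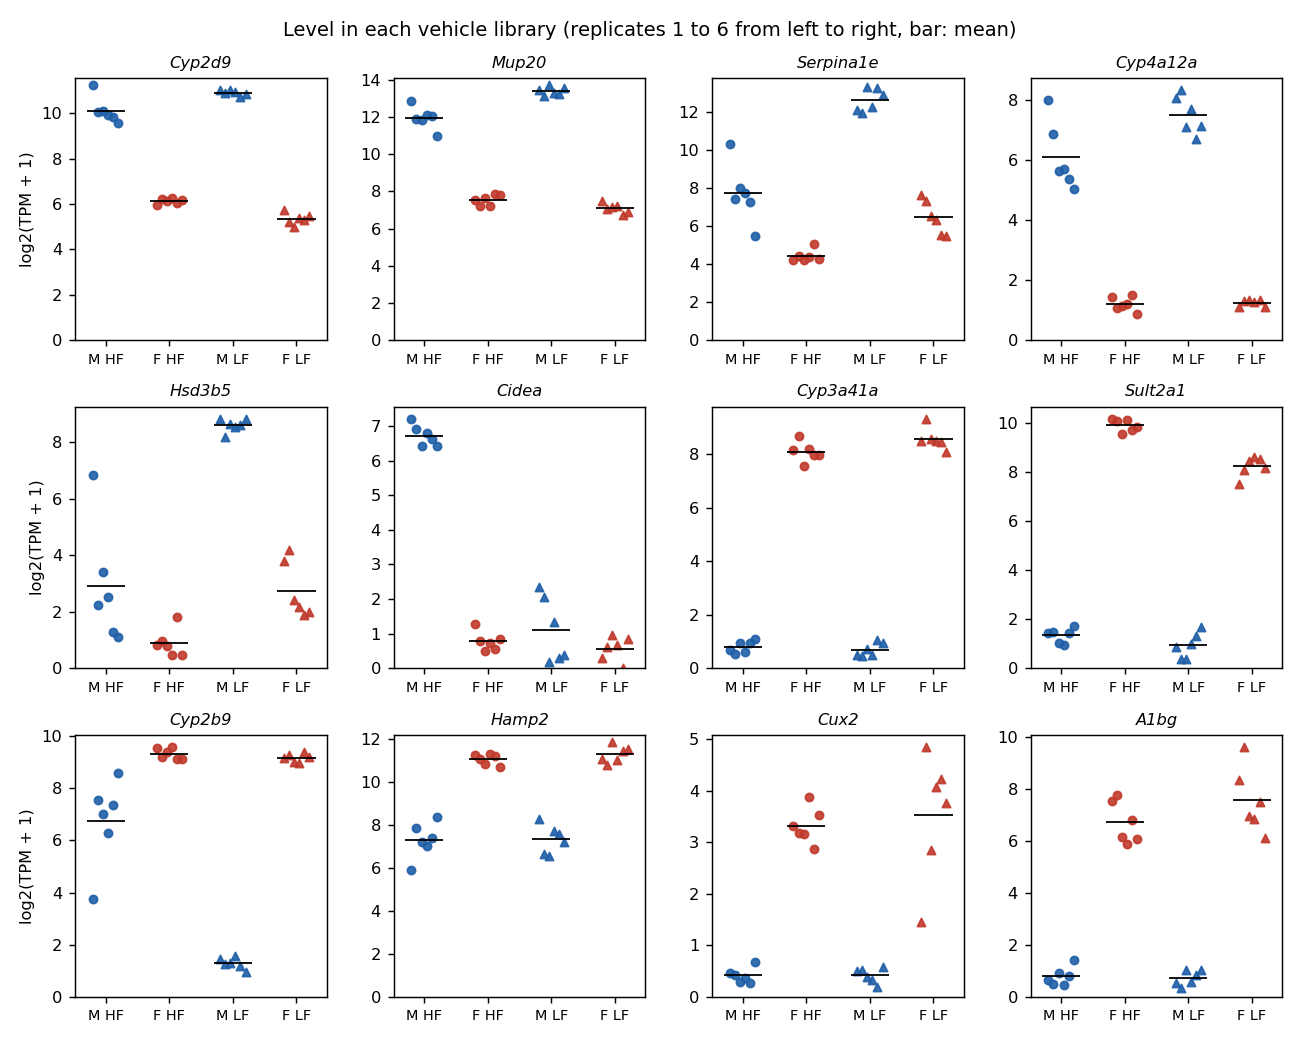
Level of 12 genes as log2(TPM + 1) in each vehicle library, with replicates 1 to 6 from left to right in males (M) and females (F) on the high-fat (HF) and low-fat (LF) diets, and a bar at the mean. On the high-fat diet male replicate 1 holds the highest Serpina1e (1287 TPM), Hsd3b5 (115 TPM) and Cyp2d9 (2394 TPM) of the 6 males.

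Of 59 measured genes known as female-biased, 49 were higher in females and 2 in males, with a median log2 difference of -1.79. The Sult family gave 11 calls towards females among 16 members and none towards males. Sult2a2 was at 1161, 1268 and 1616 TPM in females and 0.914, 1.83 and 3.18 TPM in males (log2 difference -8.85, SE 0.15, adjusted p = 7.5e-14). Sult2a3 was at 206, 245 and 320 TPM in females and between 0 and 0.45 TPM in males (log2 difference -7.72, SE 0.12, adjusted p = 3.2e-14). These genes were close to silent in every male library. Sult2a5 was listed at 0 in 5 of 6 male libraries and at 0.165 TPM in the other one, against 40.6 to 91 TPM in females. Sult2a7 was the least separated of those named, with 1.76 to 5.54 TPM in males and 63.4 to 130 TPM in females (log2 difference -4.36, SE 0.20, adjusted p = 6.5e-09).

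Cytochromes of the Cyp2a, Cyp2b, Cyp2c and Cyp3a families, which hydroxylate steroids and foreign compounds, were mostly female-biased. Towards females were called 4 of 4 Cyp2a genes, 2 of 3 Cyp2b genes, 7 of 13 Cyp2c genes and 7 of 8 Cyp3a genes (6 with trimmed-mean scaling). The only call towards males among them was a Cyp2c gene, and it was lost with that scaling. Cyp3a41a, on chromosome 5 from 145694049 to 145720136 (minus strand, GRCm38), was at 187, 267 and 406 TPM in females and 0.445, 0.745 and 1.15 TPM in males (log2 difference -7.28, SE 0.16, adjusted p = 1.2e-12). Cyp2c69 was at 213, 299 and 452 TPM in females and 0.517, 1.55 and 2.68 TPM in males (log2 difference -6.92, SE 0.21, adjusted p = 6.6e-11). In these 2 genes the male libraries were uniformly low.

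Other female-biased genes were well expressed in males too. Cyp2b9 was at 552, 632 and 774 TPM in females and 12.5, 146 and 387 TPM in males, with the lowest value in male replicate 1. No male reached the lowest female, but the males spread widely around a log2 difference of -2.57 (SE 0.59, adjusted p = 0.012). It was -1.97 without male replicate 1 (adjusted p = 0.0013). Cyp2a4, a testosterone hydroxylase, was at 496, 899 and 976 TPM in females and 7.26, 31.1 and 73.2 TPM in males (log2 difference -4.70, SE 0.40, adjusted p = 4.5e-06). Cyp2b10, the usual marker of the receptor CAR, overlapped between the sexes at 8.72 to 41.9 TPM in females and 4.5 to 23.4 TPM in males (log2 difference -0.54, SE 0.42, adjusted p = 0.45).

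Genes outside the cytochromes and sulfotransferases were also among the largest differences towards females. A1bg, a secreted plasma protein on chromosome 15 from 60896859 to 60923012 (minus strand, GRCm38), was at 58.2, 90.9 and 218 TPM in females and 0.362, 0.658 and 1.7 TPM in males (log2 difference -5.92, SE 0.31, adjusted p = 3e-08). Its lowest female value was far above its highest male value. Hamp2, a copy of the gene for the iron hormone hepcidin, was high in females at 1622, 2251 and 2526 TPM but also clearly present in males at 58.9, 155 and 324 TPM (log2 difference -3.77, SE 0.31, adjusted p = 2.8e-06).

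Sequence just before the start of such genes was searched because members of either direction moved together. The 250 bases upstream of each start in the RefSeq promoter table (GRCm38.p6) were read on both strands for ATTGAT, the core of sites bound by HNF6 and CUX2, and for TTCNNNGAA, the STAT5-type palindrome. Neither string contains the other. ATTGAT stood in 6 of the 22 promoters of 20 genes at least 4-fold higher in males (27.3%). It stood in 9 of the 28 promoters of 25 genes at least 4-fold higher in females (32.1%). Some genes thus count more than once, and the rest of the 36 and 39 such genes had no matched promoter. The same string stood in 6.72% of all 32851 promoters of the table and in 4.02% of the 12004 promoters of tested genes. TTCNNNGAA stood in 9.09% and 14.3% of the promoters of the large male and female genes, against 7.02% of all and 5.9% of those of tested genes. The promoters with large differences were richer in A and T, 52.1% and 55.4% of bases against 40.6% in tested genes, and some belong to families that share sequence. The part of base composition in these shares was not tested, and a match is not evidence of binding.

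The promoters of 5 genes are shown as examples of a match, with every match in capitals and the RefSeq start just after the last base. They come from 8 windows picked by hand among 15 genes, those of the 24 with the largest differences that had a promoter. RefSeq and GENCODE starts can differ: the A1bg and Cyp2d9 windows lie inside the GENCODE spans given for these genes above. All 5 genes lie on the minus strand, and each sequence is given 5′ to 3′ in the direction of the gene. The windows are Mup7 chr4:60070476-60070725, Serpina1e chr12:103956898-103957147, Cyp3a41a chr5:145720137-145720386, A1bg chr15:60921271-60921520 and Cyp2c69 chr19:39886770-39887019.
Mup7: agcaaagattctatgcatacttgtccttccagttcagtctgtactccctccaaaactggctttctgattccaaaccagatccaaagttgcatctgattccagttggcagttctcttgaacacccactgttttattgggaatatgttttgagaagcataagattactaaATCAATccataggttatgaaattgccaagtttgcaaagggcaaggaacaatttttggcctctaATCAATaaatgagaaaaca
Serpina1e: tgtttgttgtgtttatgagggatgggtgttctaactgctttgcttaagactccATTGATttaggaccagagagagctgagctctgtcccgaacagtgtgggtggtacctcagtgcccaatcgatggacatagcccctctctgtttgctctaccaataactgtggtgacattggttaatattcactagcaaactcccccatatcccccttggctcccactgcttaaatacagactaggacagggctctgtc
Cyp3a41a: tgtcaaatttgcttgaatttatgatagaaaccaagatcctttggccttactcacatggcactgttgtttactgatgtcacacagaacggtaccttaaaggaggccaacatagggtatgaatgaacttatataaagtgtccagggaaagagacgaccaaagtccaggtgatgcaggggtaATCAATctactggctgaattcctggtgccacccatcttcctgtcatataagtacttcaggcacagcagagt
A1bg: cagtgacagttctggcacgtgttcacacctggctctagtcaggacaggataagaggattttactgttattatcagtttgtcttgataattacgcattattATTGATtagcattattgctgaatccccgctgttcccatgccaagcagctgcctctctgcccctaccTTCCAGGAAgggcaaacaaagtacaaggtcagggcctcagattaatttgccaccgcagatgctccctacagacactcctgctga
Cyp2c69: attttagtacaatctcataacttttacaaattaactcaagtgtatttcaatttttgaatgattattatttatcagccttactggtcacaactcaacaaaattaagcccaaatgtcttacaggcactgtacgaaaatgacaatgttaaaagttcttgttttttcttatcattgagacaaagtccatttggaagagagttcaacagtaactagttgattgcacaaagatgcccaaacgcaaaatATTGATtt
The first pair are male-biased and the other 3 female-biased. They were chosen because each holds ATTGAT or its reverse complement, so that they share it is no finding. The A1bg window also holds a TTCNNNGAA match. The other 3 windows, of Cyp2d9 (log2 difference 3.99), Cyp2c40 (-6.36) and Cyp2b13 (-6.37), had neither string in these 250 bases, although all 3 genes were farther apart between the sexes than Serpina1e (3.31). The Cyp2c40 window is close to that of Cyp2c69 but offset, and it ends before the stretch in which Cyp2c69 holds ATTGAT. Its lack of a match thus rests on the annotated start, beyond which no bases were searched.

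In the list of growth hormone, STAT5 and IGF genes, 3 of 27 were higher in males and 7 in females, with a median log2 difference of -0.10. Among all genes, 8.76% were higher in males and 3.71% in females. Cux2, the repressor kept on by steady growth hormone, lies on chromosome 5 from 121856366 to 122050102 (minus strand, GRCm38). It was at 6.27, 8.53 and 13.6 TPM in females and 0.209, 0.318 and 0.6 TPM in males (log2 difference -2.91, SE 0.15, adjusted p = 2.7e-08). Every male library was far below the lowest female one. Bcl6, its counterpart that represses female genes, was at 7.09, 22.4 and 36.1 TPM in males and 3.1, 4.88 and 11.2 TPM in females. Its ranges overlapped, and the log2 difference was 1.61 (SE 0.38, adjusted p = 0.013).

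Receptors and feedback genes of the axis differed too. Prlr, the prolactin receptor, was at 37.7, 47.4 and 55.2 TPM in females and 9.02, 12.8 and 16.4 TPM in males (log2 difference -1.79, SE 0.14, adjusted p = 1.7e-06). Egfr, the receptor of epidermal growth factor, was at 21.4, 31.7 and 50.1 TPM in males and 7.3, 9.59 and 14.7 TPM in females (log2 difference 1.60, SE 0.20, adjusted p = 0.00015). Lepr, the leptin receptor, was low and higher in females, at 2.59 to 5.16 TPM against 1.1 to 2.01 TPM (log2 difference -1.04, SE 0.13, adjusted p = 0.00022). None of these 3 overlapped between the sexes. Socs2, a feedback inhibitor that growth hormone induces, was higher in females with overlapping ranges (log2 difference -1.14, SE 0.27, adjusted p = 0.014). Cish, another such inhibitor, was at 3.76 to 7.26 TPM in females and 0.889 to 5.66 TPM in males (adjusted p = 0.026, and 0.053 without male replicate 1). Stat5b, with 27.6 to 31.6 TPM in males and 24.1 to 33.2 TPM in females, gave a log2 difference of -0.03 (SE 0.08, adjusted p = 0.84). The growth hormone receptor gene Ghr gave 0.10 (SE 0.06, adjusted p = 0.33), and Igf1, the main product of the axis, gave -0.28 (SE 0.09, adjusted p = 0.055).

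Of 30 sex steroid and nuclear receptor genes, 2 were higher in females and none in males. Of 23 liver sex-bias regulators 2 were called in each direction. Beside the shares over all genes, 8.76% towards males and 3.71% towards females, counts this small are no result about these lists. Esr1, the main estrogen receptor of liver, was at 5.66, 7.28 and 9.82 TPM in females and 2.3, 3.41 and 3.86 TPM in males, with no overlap (log2 difference -0.98, SE 0.14, adjusted p = 0.00038). Nr1i3, the gene of the xenobiotic receptor CAR, was at 104 to 191 TPM in females and 68.5 to 117 TPM in males, which overlap (log2 difference -0.76, SE 0.16, adjusted p = 0.0069). Zfp445, a zinc finger protein of imprinting control, was at 37.6 to 38.8 TPM in all 6 males and 17.8 to 27.8 TPM in females (log2 difference 0.70, SE 0.10, adjusted p = 0.00036). Its male range was the narrower by far.

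Steroid dehydrogenases and reductases divided between the sexes, with 5 of 24 higher in males and 6 in females, beside 8.76% and 3.71% of all genes. Srd5a1, a steroid reductase that makes dihydrotestosterone, was at 40.1, 60.4 and 81.8 TPM in males and 19.4, 28.5 and 35.6 TPM in females (log2 difference 1.13, SE 0.17, adjusted p = 0.00058). Akr1d1, the steroid reductase needed for bile acids, went the other way at 213, 249 and 312 TPM in females and 110, 138 and 165 TPM in males (log2 difference -0.87, SE 0.11, adjusted p = 0.00019). These 2 reductases, which act on the same steroid double bond, were biased in opposite directions, each without overlap. Cyp17a1, which makes androgen precursors, was at 140, 202 and 275 TPM in females and 8.06, 38 and 62.8 TPM in males (log2 difference -2.63, SE 0.38, adjusted p = 0.00051). Hsd11b1, which activates glucocorticoid, was at 307 to 379 TPM in females and 195 to 247 TPM in males (log2 difference -0.63, SE 0.07, adjusted p = 0.0001). Hsd17b6 stands in the list of male-biased genes but was higher in females here (log2 difference -1.38, SE 0.31, adjusted p = 0.011), with overlapping ranges.

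Bile acid genes also divided, 8 of 37 towards males and 9 towards females, beside 8.76% and 3.71% of all genes. Cyp8b1, the hydroxylase that sets the share of cholic acid, was at 249, 356 and 415 TPM in males and 108, 116 and 190 TPM in females (log2 difference 1.43, SE 0.15, adjusted p = 3.8e-05). Cyp7b1, which opens the alternative pathway, was at 33.4 to 94.1 TPM in males and 20.8 to 25.9 TPM in females (log2 difference 1.09, SE 0.20, adjusted p = 0.0027). Both hydroxylases were higher in every male library. Scp2, a sterol carrier of peroxisomes, was at 3167 to 3617 TPM in males and 1713 to 2249 TPM in females (log2 difference 0.80, SE 0.07, adjusted p = 4.4e-06). Among transporters, Abcb4, which moves phospholipid into bile, was at 101 to 117 TPM in males and 59.1 to 81.5 TPM in females (log2 difference 0.64, SE 0.08, adjusted p = 0.00011). Slco1a4, an uptake carrier, was higher in females at 41.8 to 63.8 TPM against 9.11 to 27.2 TPM (log2 difference -1.66, SE 0.24, adjusted p = 0.00047).

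Of 23 genes of de novo lipogenesis, 9 were higher in males and none in females (13 and none without female replicate 1), with a median log2 difference of 0.41. Scd1, the desaturase that makes oleate, was at 16471, 24119 and 32438 TPM in males and 5249, 10044 and 16715 TPM in females. Its ranges met, the highest female lying just above the lowest male (log2 difference 1.24, SE 0.26, adjusted p = 0.0069). Of 26 lipid droplet genes, 8 were higher in males and 1 in females. Cidec, the relative of Cidea that enlarges droplets, was at 108, 162 and 242 TPM in males and 15, 25.7 and 34.4 TPM in females (log2 difference 2.71, SE 0.22, adjusted p = 2.2e-06). Fitm1, a protein of droplet formation, was at 136 to 179 TPM in males and 52.9 to 96.2 TPM in females (log2 difference 1.13, SE 0.14, adjusted p = 0.0002).

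Of 42 PPAR-alpha targets and oxidation genes, 11 were higher in females and 1 in males (8 and 1 without male replicate 1), with a median log2 difference of -0.12. Members named here are omega-hydroxylases and acyl-CoA thioesterases. Cyp4a14 was at 973, 1251 and 1281 TPM in females and 68.8, 250 and 439 TPM in males (log2 difference -2.43, SE 0.33, adjusted p = 0.00029). Acot3 was at 180, 229 and 322 TPM in females and 17.4, 27.3 and 147 TPM in males (log2 difference -2.55, SE 0.43, adjusted p = 0.0017). Neither overlapped between the sexes.

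Among detoxifying genes, Nrf2 targets were higher in males in 15 of 30 and in females in 1, with a median log2 difference of 0.39. Gstm3, a glutathione transferase, was at 153, 381 and 560 TPM in males and 52.9, 86.4 and 92.5 TPM in females (log2 difference 2.08, SE 0.28, adjusted p = 0.00034). Srxn1, which repairs oxidised peroxiredoxin, was at 59.3, 69.4 and 85.5 TPM in males and 30.3, 35.4 and 45.8 TPM in females (log2 difference 0.91, SE 0.11, adjusted p = 0.0001). Gstp1 was at 939 to 1854 TPM in males and 325 to 499 TPM in females (log2 difference 1.53, SE 0.17, adjusted p = 4.9e-05). Every male was above every female in these 3. CAR and PXR targets were higher in females in 15 of 35 and in males in 3, and that list shares Cyp2b, Cyp3a and Sult genes with the female-biased list. Cyp2c37, which oxidises arachidonic acid, was among the Cyp2c genes higher in females, at 740 to 1202 TPM against 270 to 451 TPM (log2 difference -1.48, SE 0.14, adjusted p = 1.3e-05).

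Of 42 complement and coagulation genes, 8 were higher in males and 11 in females (8 and 8 without male replicate 1), with a median log2 difference of -0.04. C6 was at 38.3, 68.4 and 133 TPM in males and 9.95, 10.9 and 11.9 TPM in females (log2 difference 2.54, SE 0.21, adjusted p = 3.1e-06). C8a was at 131, 236 and 321 TPM in males and 59, 70.3 and 94.6 TPM in females (log2 difference 1.54, SE 0.19, adjusted p = 0.00014). Both encode parts of the membrane attack complex. Mbl2, a lectin that starts complement, was higher in females at 784 to 939 TPM against 447 to 582 TPM (log2 difference -0.65, SE 0.07, adjusted p = 7.6e-05). Cfd, complement factor D and also a product of fat cells, was at 27.6, 38.6 and 331 TPM in males and 4.03, 9.55 and 21 TPM in females (log2 difference 2.38, SE 0.55, adjusted p = 0.012). The 331 TPM was male replicate 1, in which the fat markers Adipoq, Lep and Plin1 were below 1 TPM. Without it the log2 difference was 1.87 (adjusted p = 0.0057).

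Interferon response genes were higher in females in 5 of 36 and in males in none, among them Gbp3, a guanylate-binding protein, at 13 to 22.6 TPM against 7.34 to 11.2 TPM (log2 difference -0.83, SE 0.13, adjusted p = 0.0012). Heat shock and chaperone genes were higher in males in 4 of 28, and in 2 with trimmed-mean scaling or without male replicate 1. Hspb1, a small heat shock protein, was at 56.6 to 98.4 TPM in males and 20.4 to 42 TPM in females (log2 difference 1.18, SE 0.16, adjusted p = 0.00032). Sugar metabolism genes gave 5 of 31 towards males, including the glycolytic regulator Pfkfb3 at 7.26 to 17.6 TPM against 2.8 to 4.48 TPM (log2 difference 1.55, SE 0.19, adjusted p = 0.00017). Cholesterol synthesis had 1 call in each direction among 24 genes, the urea cycle and amino acid breakdown 2 and 3 of 29, and the circadian clock 1 and 2 of 21. Over all genes the shares were 8.76% and 3.71%.

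**Figure D3:**
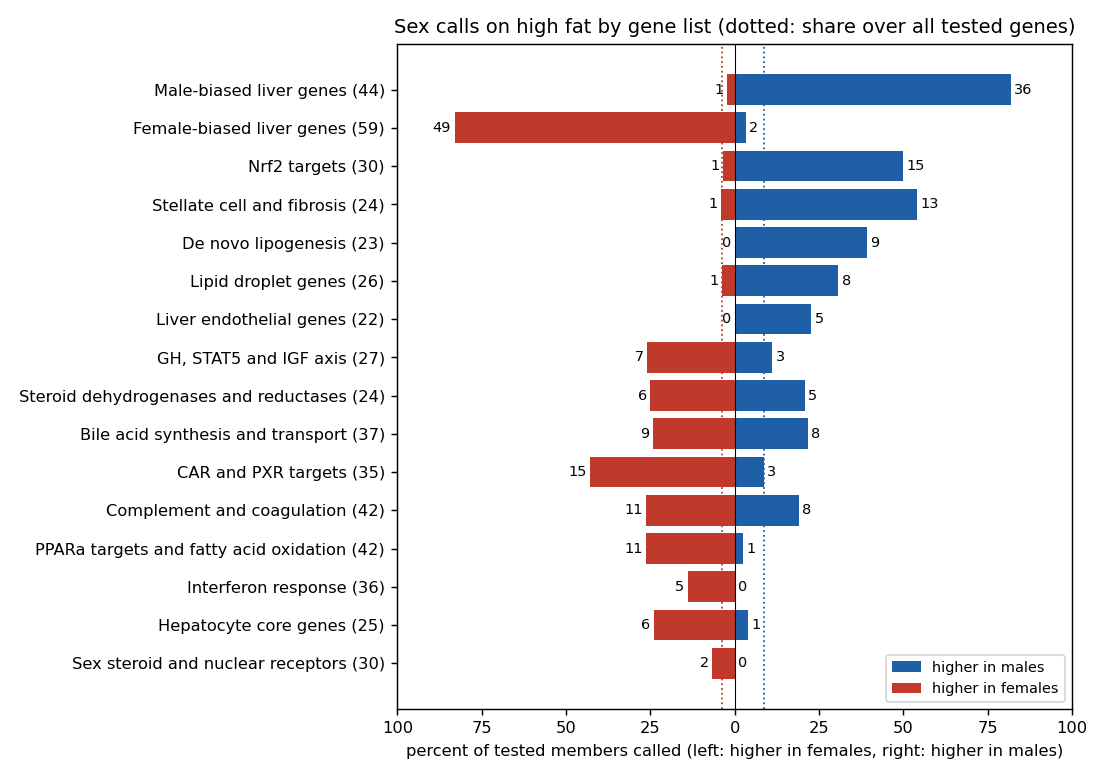
Share of tested members of each gene list called on the high-fat diet, higher in females to the left and higher in males to the right, in percent of the members tested, with dotted lines at the share over all tested genes. Of the 16 lists drawn, those of known sex-biased genes reach farthest on their own side, and the stellate cell and Nrf2 lists stand on the male side with 13 of 24 and 15 of 30. The lists were chosen with earlier results of these data known.

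Some genes of cells other than hepatocytes were also unequal between the sexes. Bulk RNA cannot tell fewer cells of a type from less RNA per cell. Stellate cell and fibrosis genes were higher in males in 13 of 24 and in females in 1, with a median log2 difference of 0.42 against 0.05 over all genes. Col1a1, the main chain of fibrillar collagen, was at 22.1, 27.1 and 29.7 TPM in males and 8.51, 10.4 and 12.4 TPM in females (log2 difference 1.29, SE 0.10, adjusted p = 1.1e-06). Col3a1 was at 26.8, 29.4 and 33.4 TPM in males and 11.3, 12.9 and 19.3 TPM in females (log2 difference 1.12, SE 0.11, adjusted p = 2.2e-05). No male overlapped a female in either collagen. Lrat, a marker of quiescent stellate cells, was at 13.3 to 17.0 TPM in males and 12.0 to 21.1 TPM in females and was not called. It was picked out after its values were seen. The list sum was 539.0 to 612.4 TPM in males and 473.0 to 563.5 TPM in females (exact permutation test, two-sided, p = 0.00433, adjusted over 13 lists 0.0422), and what the sum contributes to single genes was not tested.

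Liver endothelial genes were higher in males in 5 of 22 and in females in none (3 with trimmed-mean scaling). Vwf, a clotting protein of vessel lining, was at 2.17 to 3.53 TPM in males and 1.09 to 2.03 TPM in females (log2 difference 0.58, SE 0.12, adjusted p = 0.0086). Their sum was 340.1 to 455.1 TPM in males and 302.9 to 369.6 TPM in females, with overlap (exact permutation test, two-sided, p = 0.0476, adjusted 0.124). Macrophage genes gave 2 of 23 in each direction, beside 8.76% towards males and 3.71% towards females of all genes. The macrophage count towards males is close to that share. The Kupffer cell lectin Clec4f was higher in females at 119 to 172 TPM against 91 to 121 TPM (log2 difference -0.49, SE 0.11, adjusted p = 0.0086), and Gpnmb, of lipid-loaded macrophages, was higher in males at 2.54 to 5.48 TPM against 0.36 to 3.42 TPM (log2 difference 0.96, SE 0.26, adjusted p = 0.027). Their ranges overlapped, and both genes lost the call in some of the alternatives. None of 9 muscle genes was called. The muscle list sum was at 22.77, 35.62 and 59.71 TPM in males and 34.83, 69.58 and 167.8 TPM in females, female replicate 1 being the highest (exact permutation test, two-sided, p = 0.0346, adjusted 0.113).

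How much of the dimorphism remained on this diet was read against the low-fat vehicle libraries, 6 of each sex, filtered and fitted in the same way on their own. There 808 of 13030 genes (6.2%) were higher in males and 2112 (16.2%) in females. At least 2-fold differences numbered 211 towards males and 232 towards females on low fat, against 112 and 98 on high fat, and at least 4-fold differences 68 and 74 against 36 and 39. The count of small differences depended on scaling: with a trimmed mean the low-fat calls were 1379 and 1111, and the median over all genes moved from -0.09 to 0.01. With that scaling the counts of large differences on low fat were 250 and 185 at 2-fold and 69 and 70 at 4-fold, and on high fat 108 and 103, and 35 and 39. Library numbers restart in each diet, so diet and a possible cohort cannot be told apart.

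Among 12656 genes tested on both diets, 441 had the same call on each. These were 28.0% of the 1573 high-fat calls and 15.4% of the 2856 low-fat calls. By direction, 233 were higher in males on both diets and 208 in females, or 21.1% of the male and 44.2% of the female calls of the high-fat diet. Read the other way, they were 30.1% of the male and 9.99% of the female calls of the low-fat diet, so the order of the sexes depends on which diet is the base. A further 171 genes were called in opposite directions, 153 of them higher in males on high fat and in females on low fat. As a base for the 153, 2082 of the 12656 genes were higher in females on low fat and 1102 in males on high fat. Lists this long share some genes anyway, so the 153 are not read as a reversal by diet. Across the genes, the differences on the 2 diets had a Pearson correlation of 0.587 and a Spearman correlation of 0.122. Genes are not independent replicates, so these are descriptions. Leaving out single libraries moved the shared calls between 373 and 461.

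**Figure D4:**
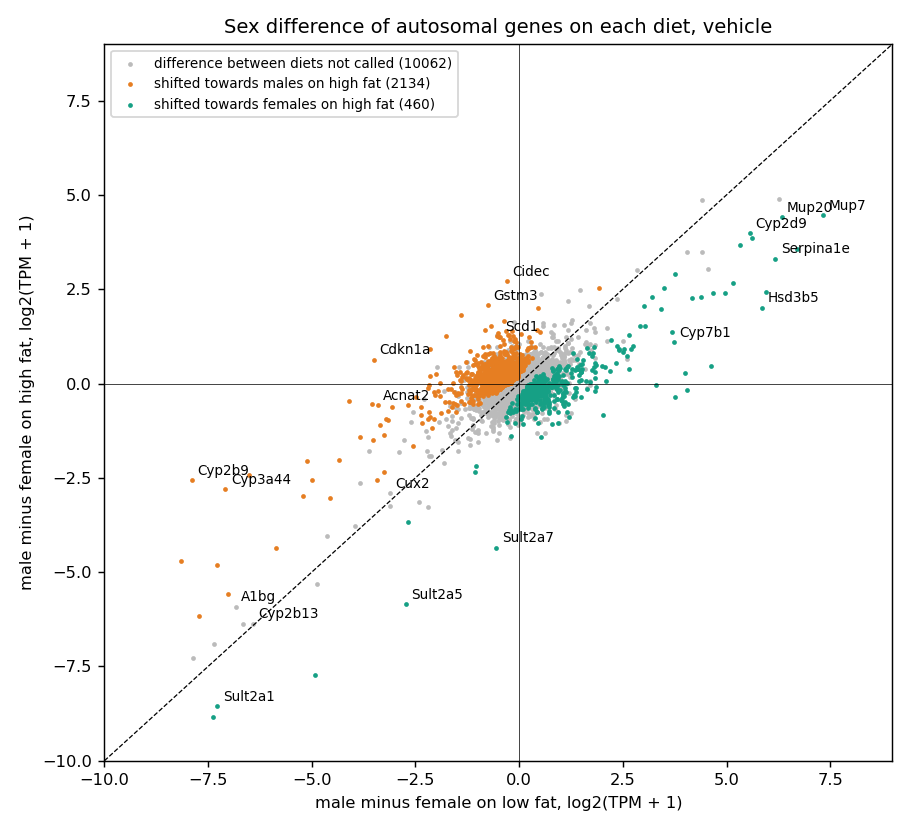
Male minus female difference in log2(TPM + 1) of each autosomal gene tested on both vehicle diets, low fat on the horizontal and high fat on the vertical axis, coloured by whether the difference between diets was called. The dashed line marks equal differences. Mup20 (6.33 on low fat and 4.41 on high fat) and Cyp2b9 (-7.88 and -2.57) lie nearer to 0 on high fat, and Sult2a7 (-0.55 and -4.36) lies farther from 0. Over all 12656 genes the Pearson correlation is 0.587 and the Spearman correlation 0.122.

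The difference of the sex differences was tested over the 24 vehicle libraries. Of 14213 genes tested, 2212 (15.6%) had a sex difference shifted towards males on high fat and 499 (3.51%) one shifted towards females, 19.1% of the genes in all. The median over all genes was 0.13 on the log2 scale. With trimmed-mean scaling the median was 0.01 and the calls 1019 and 832, a male share of 55.1% in place of 81.6%. At 4-fold or more, 41 genes were shifted towards males and 30 towards females (34 and 38 with that scaling). Of the 1151 genes called higher in males on high fat, 608 were shifted towards males relative to low fat, 56 towards females, and 487 had no called difference between diets. Of the 488 higher in females, 113 were shifted towards females, 49 towards males and 326 not called. Both sets were chosen in the high-fat libraries that also enter the shift. A lean towards their own sex is thus built into these counts, which are no evidence of a larger bias on high fat.

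To compare the size of the bias without choosing genes on either vehicle diet, genes were taken from the mixture libraries, which the comparison does not use. Averaged over the diets, 6.84% of the genes tested there were higher in males and 11.7% in females, of which 972 and 1659 also passed the filter over the 24 vehicle libraries. Their median log2 difference was 0.33 on high fat and 0.32 on low fat for the male-biased genes, and -0.16 and -0.33 for the female-biased ones. A smaller difference on high fat was seen in 492 of the 972 and in 1146 of the 1659. These values are unscaled, and the median over all genes was then 0.05 on high fat and -0.09 on low fat. An offset of that size bears on such small medians and on these counts. They were not recomputed with trimmed-mean scaling, so the 2 directions are not compared by them. Chosen genes at least 2-fold apart numbered 121 towards males and 125 towards females. Their median log2 difference was 1.25 on high fat and 2.09 on low fat for the male-biased genes, and -1.38 and -2.04 for the female-biased ones. On high fat, 117 of the 121 and 120 of the 125 had the sign they had in the mixture libraries, 87 and 91 were called that way, and 92 and 89 had a smaller difference than on low fat. The test of the difference between diets called 60 of the 121 smaller and 12 larger, and 44 of the 125 smaller and 14 larger.

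The level of these genes was also read in each library. Averaged over the 121 male-biased genes, log2(TPM + 1) was 3.98, 4.43 and 5.16 in high-fat males (lowest, median, highest) and 4.88, 5.13 and 5.29 in low-fat males. Male replicate 1 was the 5.16, and the other 5 high-fat males were below every low-fat male. High-fat females were at 2.81 to 2.98 and low-fat females at 2.55 to 2.77, with no overlap. Averaged over the 125 female-biased genes, it was 2.52, 2.98 and 3.37 in high-fat males and 1.96, 2.14 and 2.23 in low-fat males, again with no overlap. High-fat females were at 4.81 to 5.16 and low-fat females at 4.50 to 5.03. These means are a description with no test.

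**Figure D5:**
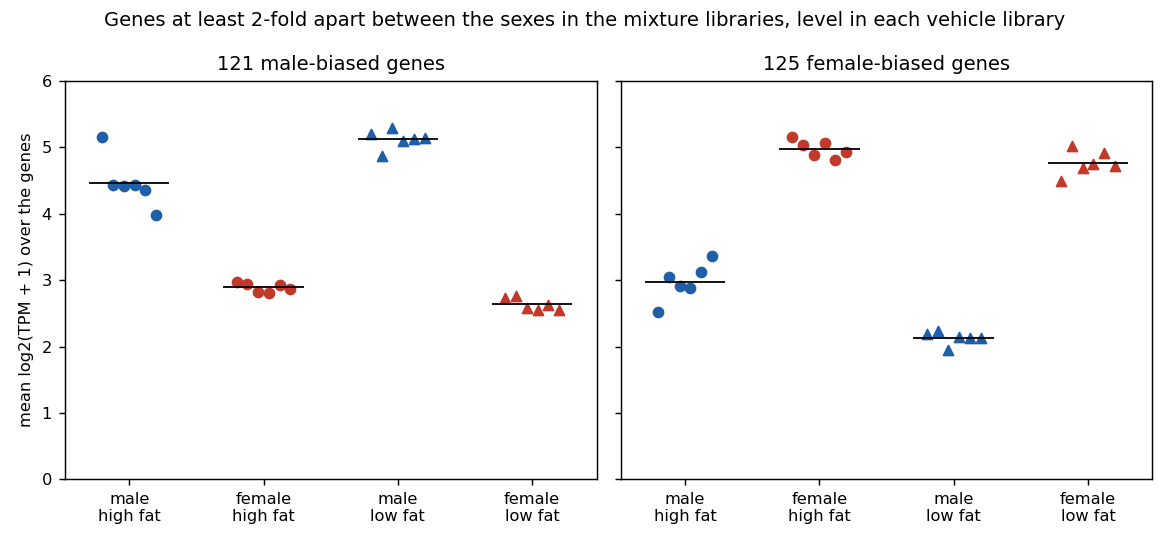
Mean log2(TPM + 1) over 121 male-biased genes (left) and 125 female-biased genes (right), chosen in the mixture libraries, for each vehicle library by sex and diet. High-fat males lie between 3.98 and 5.16 on the left and between 2.52 and 3.37 on the right, and with the exception of male replicate 1 on the left they lie nearer to the females than every low-fat male does.

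The lists of known sex-biased genes, compiled with results of these data known, were read by count. In the list of male-biased genes, the sex difference was shifted towards females on high fat in 31 of 46 and towards males in 3, and the median log2 difference was 1.57 on high fat and 3.03 on low fat. In the list of female-biased genes, it was shifted towards males in 25 of 60 and towards females in 8, with medians of -1.79 and -2.71. Mup20 had a log2 difference of 4.41 on high fat and 6.33 on low fat (difference -1.92, adjusted p = 8.1e-05), and Cyp2d9 had 3.99 and 5.56 (difference -1.57, adjusted p = 0.00018). Low-fat males held 9178 to 13691 TPM of Mup20, all above the 2048 to 7414 TPM of high-fat males. Cyp7b1 had a log2 difference of 3.73 on low fat and 1.09 on high fat (difference -2.64, adjusted p = 4.9e-06). Cyp2b9 went from -7.88 to -2.57 (difference 5.32, adjusted p = 1.3e-05), where low-fat males held 0.922 to 1.95 TPM and high-fat males 12.5 to 387 TPM, while females held 499 to 664 and 552 to 774 TPM.

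In further genes the female libraries of the 2 diets lay apart. Cyp3a44 had a log2 difference of -7.08 on low fat and -2.81 on high fat (difference 4.27, adjusted p = 3.1e-06). It was at 84.6 to 552 TPM in low-fat females and 5.82 to 15 TPM in high-fat females, and below 1 TPM in all males of either diet. The Sult2a genes went the other way: Sult2a3 had log2 differences of -4.91 and -7.72 (difference -2.80, adjusted p = 2e-05) and Sult2a7 of -0.55 (not called) and -4.36 (difference -3.80, adjusted p = 2e-06). Low-fat females held 2.5 to 14.7 TPM of Sult2a7 and high-fat females 63.4 to 130 TPM. Cdkn1a, a cell cycle inhibitor, was higher in females on low fat (log2 difference -3.51) and not called on high fat (0.63, adjusted p = 0.16). The difference between diets was 4.14 (adjusted p = 3.1e-06). It was at 21.35 to 100.1 TPM in low-fat females and 8.635 to 19.92 TPM in high-fat females. Males lay apart too, the other way, at 2.43 to 6.19 TPM on low fat and 9.64 to 40.7 TPM on high fat. Car3, a carbonic anhydrase of fat and liver, was higher in males on low fat (1.83) and not called on high fat (-0.19, adjusted p = 0.31), a difference of -2.03 (adjusted p = 1.4e-05).

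Some differences were called on high fat and not on low fat, or in opposite directions, and here too the difference between diets was tested. Cidea was at 0.126 to 4.12 TPM in low-fat males and at most 0.956 TPM in low-fat females, and its sex difference was larger on high fat by 5.42 on the log2 scale (adjusted p = 6.9e-08). Cidec had a log2 difference of -0.29 on low fat and 2.71 on high fat (difference 3.00, adjusted p = 2.4e-05). Gstm3 was higher in females on low fat (-0.76, adjusted p = 0.011) and higher in males on high fat (2.08), and Abcb4 likewise changed from -0.59 to 0.64 (difference 1.23, adjusted p = 8.4e-06). Col1a1 went from -0.25 to 1.29 (difference 1.55, adjusted p = 0.00081). In the stellate list, 16 of 24 genes were shifted towards males on high fat and none towards females, in the endothelial list 17 of 23 and none, in the PPAR-alpha list 22 of 42 and none, and in the lipid droplet list 12 of 26 and none, beside 15.6% and 3.51% of all genes. With trimmed-mean scaling, under which the shifts over all genes were 1019 and 832, these became 14 and none, 14 and none, 18 and 2, and 8 and none. On low fat itself, 8 of 23 stellate and 15 of 22 endothelial genes were higher in females. So were 30 of 42 PPAR-alpha and 7 of 25 lipid droplet genes, beside 16.2% of all genes. A shift towards males can thus be a smaller female bias, as in the PPAR-alpha list, with 11 of 42 higher in females on high fat. Of the 27 growth hormone, STAT5 and IGF genes, 7 were shifted towards males and 3 towards females (5 and 4 with that scaling), and of the 23 liver sex-bias regulators 2 and 3 (1 and 3). Among single genes, Cux2 (-3.12 and -2.91, adjusted p for the difference 0.82), Bcl6 (1.25 and 1.61, 0.74), Esr1 (-0.92 and -0.98, 0.89) and Prlr (-2.23 and -1.79, 0.18) had no called difference between diets, while that of Lepr was called (-2.34 and -1.04, difference 1.31, adjusted p = 0.00062).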

How the data were processed

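Liver poly(A) RNA of 12 high-fat vehicle libraries (6 male, 6 female) was compared, with 12 low-fat vehicle libraries for contrast and 24 mixture libraries used only to choose genes. The authors deposited TPM, scaled to 1000000 per library, so depth is unknown and no counting interval was computed. GRCm38, STAR 2.5.2b, Trimmomatic 0.36, DESeq2 and FastQC are named, per the submitters' processing notes, with no role or order. The sources used here do not give how reads were counted or whether by strand, so overlapping and antisense genes cannot be told apart. Coordinates are from GENCODE M21 by gene identifier, 1-based. Genes on the sex chromosomes, the mitochondrial genome and scaffolds, and 23 genes without a match, were left out of the tests.

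The test was limma 3.58.1 (R 4.3.3, empirical Bayes with an intensity trend) on log2(TPM + 1), for autosomal genes that reached 1 TPM or more in 6 or more libraries, with Benjamini-Hochberg adjustment and a threshold of 0.05. The difference between diets was fitted on the 24 vehicle libraries. These log2 differences understate the change of genes with low TPM. On simulated data for the high-fat comparison (13142 genes, 200 of them changed), 65.7% of 1.5-fold, 89.6% of 2-fold and 98.5% of 4-fold changes were recovered, with 5 false calls.

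The comparison and the gene lists were chosen with earlier results of these data known. Genes named are the 12 largest called differences in each direction with a mean of at least 5 TPM, predicted genes left out (1 gene of these is not reported here); every measured gene of the hormone and steroid lists; the 4 members of each other list and up to 6 of each family with the smallest p; and the 8 genes in each direction with the smallest p for the difference between diets. Summed marker levels were tested by exact permutation. Replicate numbers did not pair the libraries: same-numbered males and females had deviation correlations of -0.0731 to 0.133. Alternatives were another pseudocount (0.1), other filters, trimmed-mean scaling, a fit of all 48 libraries, a replicate block, X and Y genes included, and each library left out.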

Additional observations from a re-analysis of the deposited data

Results flagged for a closer look

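In 38 of the named genes, each sex was examined for a high-fat library that stands apart, that is, one whose gap to its nearest neighbour takes up an unusually large share of the range of the 6 libraries. Chance would mark about 1 in 20 groups if values were normally distributed and independent. These were TPM without logs, in genes that vary together, so that rate does not apply. In all, 12 of 76 groups were marked, each at its highest library, and this is not read as an excess over chance. Of these, 6 were male replicate 1, at 2310 TPM of Mup7, 1287 TPM of Serpina1e, 2394 TPM of Cyp2d9, 116 TPM of Cyp4a12b, 377 TPM of Mup14 and 0.165 TPM of Sult2a5. The first 5 are male-biased, and this library was the highest male in each. The others were male replicate 5 at 45.2 TPM of Ap3m1 and male replicate 6 at 5.36 TPM of Cyp2c40. Among females they were replicate 1 at 2991 TPM of Car3, replicate 3 at 1.9 TPM of Gtpbp4-ps1, replicate 4 at 44.2 TPM of Hsd3b2 and replicate 5 at 32.7 TPM of Serpina1e.

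A difference between diets in the sex difference itself was called by limma for each gene below, the 8 in each direction with the smallest p. Towards males on high fat, the log2 shift was 5.42 for Cidea, 4.27 for Cyp3a44, 4.14 for Cdkn1a, 2.84 for Acnat2, 1.59 for Themis, 1.30 for Mlec, 1.20 for Ap3m1 and 1.14 for Ube2g2. Towards females it was -3.80 for Sult2a7, -3.12 for Sult2a5, -2.64 for Cyp7b1, -2.03 for Car3, -1.67 for Hsd3b2, -1.16 for Akr1c14, -1.03 for Hsd3b3 and -0.50 for Adh5. Themis, best known from T cells, was at 6.37 to 7.95 TPM in high-fat males, 1.08 to 1.95 TPM in high-fat females and below 1 TPM in all low-fat libraries. Of 24 genes of T, B and NK cells, 10 were tested on high fat and none was called. Among the T cell genes, Cd3e and Cd3g were no higher than 0.608 and 0.888 TPM in high-fat males, while Trac was at 0.49 to 2.59 TPM in males and 0.337 to 1.97 TPM in females, and Trbc2 at 2.15 to 3.81 and 0.657 to 2.93 TPM. The part of such cells in the Themis values was not tested. Mlec, a lectin of the endoplasmic reticulum, was higher in males on high fat (log2 difference 0.70) and in females on low fat (-0.60), with no overlap on high fat.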

How the results depend on the processing

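No named gene with a called high-fat difference, and no named gene with a called difference between diets, changed sign under the alternatives run. Some uncalled genes near 0 did, such as Hba-a1 (0.01, and -0.03 with trimmed-mean scaling) and Hsd17b2 (0.02 and -0.02). Of 198 named genes called on high fat, 159 kept the call in every alternative that tested them, and of 128 not called, 99 were never called. The high-fat counts (1151 towards males, 488 towards females) ranged over 781 to 1544 and 379 to 509 when single libraries were left out. With the replicate block they were 1049 and 469, and the low-fat count towards females was then 1349. The other low-fat counts ranged over 682 to 793 towards males and 1626 to 2050 towards females when single libraries were left out. Trimmed-mean scaling reversed the balance of the low-fat calls, from 808 towards males and 2112 towards females to 1379 and 1111 (27.7% and 55.4% towards males), moved the low-fat median of all genes from -0.09 to 0.01, and turned the diet shifts of 4-fold or more from 41 and 30 to 34 and 38. The low-fat count also moved with a filter at 10 TPM, which tests fewer genes (1246 towards females). Genes whose sex difference differed between diets numbered 2325 to 3150 when single libraries were left out, and genes with the same call on both diets 373 to 461. For genes chosen in the mixture libraries, the medians were 1.25 and 2.09 (male-biased, high and low fat) and -1.38 and -2.04 (female-biased) when a 2-fold difference was asked for, against 0.33, 0.32, -0.16 and -0.33 without it. Without low-fat female replicate 3, which held muscle transcripts, the low-fat medians were 0.314 and -0.349. None of these medians was recomputed with trimmed-mean scaling. Depth is unknown, so the precision of low values cannot be stated, and genes near 1 TPM are the least certain. Reads shared between near-identical family members, and a possible cohort difference between diets, limit the values of single members and every comparison of diets.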

Other observations

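Some male-biased genes outside the pathways above were also far apart on high fat. Omd, a small proteoglycan of bone and cartilage matrix, was at 9.92, 13 and 15.6 TPM in males and 1.05, 1.23 and 2.16 TPM in females (log2 difference 2.54, SE 0.13, adjusted p = 3e-08). Serpina12, the adipokine vaspin, was at 34, 50.3 and 76.1 TPM in males and 5.34, 10.7 and 12.6 TPM in females (log2 difference 2.25, SE 0.21, adjusted p = 9.2e-06), and its log2 difference on low fat was 2.35. The pseudogene Gtpbp4-ps1 was at 14.8 to 103 TPM in males and 0 to 1.9 TPM in females (log2 difference 4.86, SE 0.39, adjusted p = 2.5e-06).

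Genes of the cell cycle and DNA replication were called in 4 of 20 towards males and 1 towards females, beside 8.76% and 3.71% of all genes. The helicase subunits Mcm2, at 2.75 to 5.49 TPM in males and 1.31 to 2.52 TPM in females (log2 difference 0.67, adjusted p = 0.011), and Mcm3, at 4.58 to 8.33 and 2.56 to 4.37 TPM (log2 difference 0.66, adjusted p = 0.006), were higher in every male. Tk1, thymidine kinase, went the other way at 7.44 to 10.5 TPM in males and 10 to 40.2 TPM in females (log2 difference -1.07, SE 0.23, adjusted p = 0.0082). Cyp21a1, the steroid hydroxylase of the adrenal cortex, was at 0.886 to 3.23 TPM in males and 0 to 0.209 TPM in females, while 5 of the 8 adrenal cortex genes listed, Cyp11b1, Cyp11a1 and Nr5a1 among them, were below 1 TPM in all 12 libraries. The other two were Star, at 1.19 to 2.31 TPM in males and 1.34 to 2.89 TPM in females, and Akr1b7, at 1.48 to 6.19 and 6.16 to 9.64 TPM and called higher in females (limma adjusted p = 0.0048). The part of adrenal tissue in the Cyp21a1 values was not tested. Cyp21a1 missed the filter on low values, was not tested, and was picked out after its values were seen.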
